A study of Mus musculus with 462 samples.

Results

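The linc1547 promoter deletion clones are 8 clonal mouse embryonic stem cell lines, named B5, C5, C6, C8, D6, E10, G10 and H7 by the labels, out of 462 samples in the series. They were taken as every poly(A)+ RNA library with hybrid selection whose title names a linc1547 promoter deletion under the date label 141107. They were set against the 63 Control clones of the same date label. All of these clones come from the F1 2-1 line, a hybrid between the 129 and Castaneus mouse strains, grown without serum in 2i/LIF medium. Per the series description each deletion is heterozygous, so that 1 chromosome is modified and its homologue is intact within the same cell. A further 21 clones of the date label 141107 carry promoter deletions on other chromosomes, 10 at linc1405, 5 at linc1319, 4 at linc1386 and 2 at Sfmbt2, and served as an alternative comparison group. The labels call the cell line female while the growth protocol speaks of male cells. No age applies to these cultured lines, and neither the ends of the deletion, the method that made it nor the way the Control clones were treated is given in the sources used here.

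The linc1547 locus makes a long noncoding RNA (lncRNA) at the edge of the Hoxa cluster, the group of homeobox genes that set position along the body axis. A deletion that acts on its neighbours from the locus itself alters them on the chromosome that carries it, whereas an effect through a diffusible product alters both homologues. The comparison of the 2 alleles of each neighbour within 1 Mb, in the same clone, addresses that distinction.

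The libraries were captured for a list of 898 genes, and each gene (row) has a read count for each of the 2 alleles. The deposited files hold these in columns 5 and 6, called allele A and allele B here, and the sources used here do not say which strain either stands for. Summed over both alleles, library totals ran from 691704 to 1782286 in the deletion clones with a median of 1322991, and from 344893 to 2981776 in the Control clones with a median of 1658647. The shallowest deletion library was D6. Of the allele counts between 4 and 60, 86.0% were even in the deletion clones and 83.8% in the Control clones, so counts tended to come in steps of 2 and the counting intervals given below are too narrow. Nanog, the defining pluripotency factor, was detected in both groups. It had 19274 to 30139 counts per 1000000 library counts (CPM) in the deletion clones and 15046 to 32036 CPM in the Control clones. Over the 2485 pairs of these libraries, none had identical counts.

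The RefSeq promoter window of Evx1, the neighbour whose total level was furthest below the Control clones among the called genes, shows the sequence at that start. It covers 250 bases before and 50 bases after the annotated start on the plus strand in the GRCm38.p6 build, at chr6:52313248-52313547. Capitals mark CG dinucleotides, the pairs that can be methylated.
Evx1: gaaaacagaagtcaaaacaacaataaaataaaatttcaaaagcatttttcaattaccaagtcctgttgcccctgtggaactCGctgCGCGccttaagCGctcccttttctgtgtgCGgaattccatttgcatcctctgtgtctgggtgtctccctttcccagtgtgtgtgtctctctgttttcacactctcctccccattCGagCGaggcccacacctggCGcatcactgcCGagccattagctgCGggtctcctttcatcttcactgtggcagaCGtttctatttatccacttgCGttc
The window holds 12 CG dinucleotides and is 48.7% G and C. Of the 32851 promoter windows in the RefSeq table, 60.4% have fewer CG dinucleotides than Evx1. It contains the letters TATAAA or AGGTCA on neither strand, which occur in 13.6% and 16.3% of all windows.

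linc1547 itself lost most of 1 allele in most of the deletion clones. Its row is on chromosome 6. Clone B5 had 41 counts on allele A and 0 on allele B. Clone C8 had 45 on allele A and 4 on allele B, and clone C6 had 31 and 5. Clones H7, E10 and C5 had fewer counts in all, with 14 on allele A and 2 on allele B in H7, 10 and 2 in E10, and 9 and 2 in C5. The other two went the opposite way, with 6 counts on allele A and 32 on allele B in D6, and 6 and 30 in G10. Thus 6 clones were low on allele B and 2 were low on allele A. In the Control clones allele B was the higher one, and allele A held 36.04% of the pooled linc1547 counts, 1717 of allele A and 3047 of allele B.

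The share of linc1547 counts on allele A was 100% in B5, with an exact (Clopper-Pearson) 95% interval of 91.4% to 100%. It was 91.8% in C8 (80.4% to 97.7%) and 86.1% in C6 (70.5% to 95.3%). Clones low on allele A had shares of 15.8% in D6 (6.02% to 31.3%) and 16.7% in G10 (6.37% to 32.8%). The share in single Control clones ran from 8.11% to 71.4% with a median of 37.7%. All 6 clones low on allele B lay above every one of the 63 Control clones in their ratio, while D6 and G10 lay inside the Control range, with 1 Control clone at or below each. The reduced allele is therefore less sharply set apart in D6 and G10 than in the other clones.

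**Figure D1:**
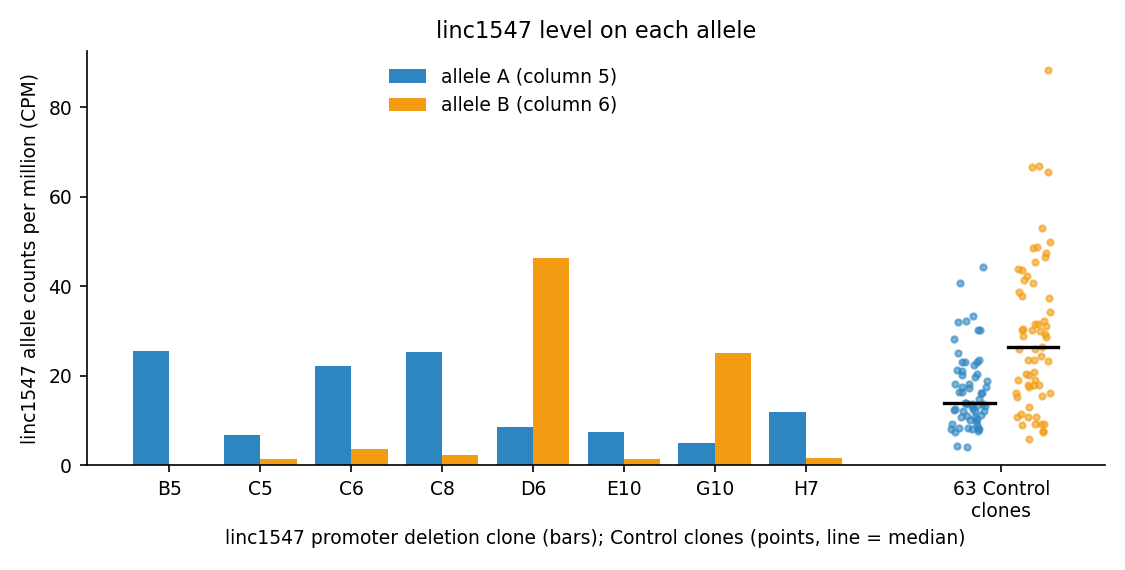
Level of linc1547 (CPM) on allele A (blue) and allele B (orange) in each of the 8 deletion clones (bars), and in the 63 Control clones (points, with the median as a line). In 6 clones the allele B bar is at 3.59 CPM or less, and in D6 and G10 the allele A bar is the shorter one, at 8.67 and 5.04 CPM.

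Scaled to library size, the reduced allele held 0 to 8.67 CPM in the 8 clones with a median of 1.98 CPM, and the other allele held 6.86 to 46.3 CPM with a median of 23.7 CPM. Against the Control median of the same allele, the reduced allele stood at 0% in B5, 5.68% in E10, 5.78% in C5, 6.47% in H7, 8.51% in C8 and 13.6% in C6, but at 36.4% in G10 and 62.7% in D6. These percentages are descriptions, since the lower allele was chosen from the same counts. The B5 value rests on 0 counts of 41. With 3 counts taken as the limit, a share of allele B of up to 7.32% is allowed, less than the exact interval above allows. As counts tended to come in steps of 2, that limit is too low. The other allele stood between 49.6% and 185% of its Control median, below it in 4 clones and above it in 4, and so did not move in 1 direction.

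The absolute deviation of the log2 allele ratio (allele A over allele B, with 0.5 added to each) from the Control median was tested without using its sign. It averaged 3.50 ± 2.28 in the 5 deletion clones that had at least 20 linc1547 counts, and 0.54 ± 0.48 in the 60 such Control clones (SD). The difference of 2.96 had a two-sided permutation p of 1e-05, the smallest that 100000 resamples can give, and a Benjamini-Hochberg adjusted p of 0.00507 over 507 rows. Only 3 of those rows, 0.592%, were called at an adjusted p under 0.05, and linc1547 had the largest difference of them. Against the 21 clones modified on other chromosomes the difference was 2.93, with an adjusted permutation p of 0.0698.

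The total of both alleles was also lower. linc1547 averaged 24.4 ± 15.1 CPM in the deletion clones and 45.9 ± 23.95 CPM in the Control clones (SD, n = 8 and n = 63). The lowest, median and highest values were 8.39, 25.7 and 54.9 CPM in the deletion clones, and 14.8, 41.4 and 129 CPM in the Control clones. Of the 8 clones 7 lay below the Control median, D6 being the exception, and 3 lay below every Control clone. The log2 fold change was -0.94 ± 0.30 (SE), with an adjusted p of 0.0152 in edgeR's quasi-likelihood test. Without clone E10 the log2 fold change was -0.80 and the adjusted p 0.0577. Against the clones modified on other chromosomes linc1547 had a log2 fold change of -1.24 and an adjusted p of 0.221 with edgeR, and -1.23 and 0.0185 with DESeq2, where it was the 1 row called among 576.

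The size of that change has to be read against how many captured genes differed. Against the Control clones 168 of 573 rows tested were called by edgeR, 29.3%, of which 97 (16.9%) were higher and 71 (12.4%) lower. Against the clones modified on other chromosomes, which share the date label but not the locus, edgeR called 0 of 576 rows, 0.0%, with 27 at an unadjusted p under 0.05. DESeq2 called 1 of the 576, 0.174%, with 32 at an unadjusted p under 0.05. The Control titles carry 1 of 20 P tags, with 2 to 5 clones each, and the deletion titles carry none, so P tag and group cannot be told apart. Among the Control clones alone the P tag was associated with 459 of 572 rows, 80.2%, in edgeR.

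Of the 25 other rows within 1 Mb of linc1547, 16 had a mean of at least 10 counts and were tested for their total level. Evx1 and 5730457N03Rik were lower in the deletion clones, and Cbx3, Hibadh and Tax1bp1 were higher. These 5 are 31.3% of the 16, a share near the 29.1% (162 of 556) called outside the window. The median log2 fold change was -0.34 over the 16 neighbours and -0.02 over all rows tested.

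Evx1 encodes an even-skipped type homeobox transcription factor and lies 194 kb from linc1547 on the far side of the Hoxa cluster, at chr6:52263492-52268372 in mm9. It had 194, 264, 239, 192, 214, 162, 266 and 245 CPM in clones B5, C5, C6, C8, D6, E10, G10 and H7, and 132, 411 and 640 CPM as the lowest, median and highest of the Control clones. All 8 deletion clones lay below the Control median, and none lay below the lowest Control clone. The log2 fold change was -0.82 ± 0.16 (SE), with an adjusted p of 0.000158 in edgeR, and ranged from -0.86 to -0.76 when each deletion clone was left out.

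Evx1 was low on both chromosomes. On the allele where linc1547 was reduced it stood at 45.8% to 72.2% of the Control median of that allele, with a median of 56.7%. On the other allele it stood at 35.02% to 67.7%, with a median of 54.2%. All 8 clones were below the Control median on each allele, and the ranges of the 2 alleles overlapped.

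Evx1 also had medians below the Control median of 411 CPM in 3 of the 4 sets of clones modified elsewhere, with 208 CPM in the 10 clones deleted at linc1405, 327 CPM in the 5 deleted at linc1319 and 295 CPM in the 2 deleted at Sfmbt2. The 4 clones deleted at linc1386 had a median of 454 CPM, above that of the Control clones. Against all 21 of these clones, whose median was 242 CPM, the linc1547 deletion clones had a log2 fold change of -0.33 with a 95% interval from -0.71 to 0.04 (edgeR, adjusted p = 0.993). Among the Control clones, the medians of the 20 P tags ran from 179 to 533 CPM, 1 of them below the median of the deletion clones. The part of clone origin in the lower Evx1 level was not tested. In bulk RNA, fewer cells expressing a gene and less RNA per cell cannot be told apart.

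The row of 5730457N03Rik, at chr6:52258383-52264826 in mm9, overlaps the start of the Evx1 row. It had a median of 41.9 CPM in the deletion clones and 52.7 CPM in the Control clones. Its log2 fold change of -0.42 ± 0.16 (SE) had an adjusted p of 0.0470 in edgeR and lost the call when any of 6 single clones was left out. Whether the counting used strand is not given in the sources used here, so reads of the 2 overlapping rows may be shared.

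Cbx3, which encodes the heterochromatin protein HP1 gamma, lies 619 kb from linc1547 on the other side. It had 101, 32.02, 29.5, 114, 31.8, 123, 38.7 and 92.2 CPM in clones B5, C5, C6, C8, D6, E10, G10 and H7, and 5.80, 22.5 and 115 CPM as the lowest, median and highest of the Control clones. The 4 clones B5, C8, E10 and H7 were near 100 CPM, and the other 4, at 29.5 to 38.7 CPM, were also above the Control median. The groups overlapped, with 13 Control clones above the lowest deletion clone. The log2 fold change was 1.37 ± 0.24 (SE), with an adjusted p of 6.51e-05 in edgeR. Against the clones modified on other chromosomes, whose values ran from 5.37 to 122 CPM, it was 0.43 with an adjusted p of 0.993.

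Hibadh encodes an enzyme of valine breakdown, and Tax1bp1 encodes a receptor of selective autophagy. Hibadh averaged 3398 ± 327 CPM in the deletion clones and 2962 ± 302 CPM in the Control clones (SD, n = 8 and n = 63), a log2 fold change of 0.19 ± 0.05 (SE) with an adjusted p of 0.00259 in edgeR. Tax1bp1 averaged 2459 ± 398 CPM in the deletion clones and 2089 ± 327 CPM in the Control clones, a log2 fold change of 0.22 ± 0.08 (SE) with an adjusted p of 0.0253 in edgeR. Against the clones modified on other chromosomes the log2 fold changes were 0.05 for Hibadh and 0.02 for Tax1bp1, neither called. Tax1bp1 lost its call without clone E10 (adjusted p = 0.0800) and without clone H7 (adjusted p = 0.0606).

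On the side away from the Hoxa cluster the nearest captured gene was Skap2, which encodes a Src kinase adaptor and lies 90.4 kb away. It had 2705 to 3270 CPM in the deletion clones and 2323 to 4369 CPM in the Control clones, with medians of 3180 and 3220 CPM. The log2 fold change was -0.07 with a 95% interval from -0.19 to 0.05 (edgeR, adjusted p = 0.378). Snx10, a sorting nexin gene, had a log2 fold change of 0.07, and Hnrnpa2b1, an RNA-binding protein gene, one of -0.16. Nfe2l3, a transcription factor gene, had one of 0.02, and none of these passed the test. Against the clones modified on other chromosomes the values were 0.0036 for Snx10, -0.25 for Hnrnpa2b1 and 0.06 for Nfe2l3, none called by edgeR.

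The Hoxa genes had low counts in these captured libraries. CPM after capture was compared for the same gene between clones, and does not rank expression between genes. Of the 17 genes listed for the Hoxa cluster and Evx1, 12 had a row and 7 could be tested. Evx1 was the 1 called of these 7, a smaller share than the 29.3% called over all rows tested. All 7 had a negative log2 fold change, with a median of -0.50. Over all 573 rows 299 were negative, with a median of -0.02. Against the clones modified on other chromosomes the list median was -0.35 over the genes tested there, none of them called by edgeR. Hoxa9 had 61.2, 34.3, 91.3, 78.6, 54.9, 77.2, 119 and 83.7 CPM in clones B5, C5, C6, C8, D6, E10, G10 and H7, and 2.95, 107 and 369 CPM as the lowest, median and highest of the Control clones. All of the deletion clones lay well inside that wide Control range. The log2 fold change was -0.71 ± 0.46 (SE), with an adjusted p of 0.257 in edgeR.

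Hoxa10 had a log2 fold change of -0.50, Hoxa11 of -0.64, Hoxa7 of -0.41, Hoxa3 of -0.40 and Hoxa4 of -0.28, and the lncRNA Mira, located between Hoxa6 and Hoxa7, one of -0.82, none of them called. Hoxa3 and Hoxa4, at 49.4 kb and 70.01 kb, were the tested rows closest to linc1547. Their rows overlap and have nearly the same counts, so they are not separate measurements. The 95% intervals were wide, from -1.62 to 0.21 for Hoxa9 and from -1.34 to 0.34 for Hoxa10. Among the Control clones the P tag medians of Hoxa9 ran from 7.63 to 344 CPM. Hoxa2, Hoxa5 and Hoxa13 had 0 counts in every library of both groups, and Hoxa6, Hoxa11as, 2700086A05Rik, 1700094M24Rik and Jazf1 were too low to test.

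**Figure D2:**
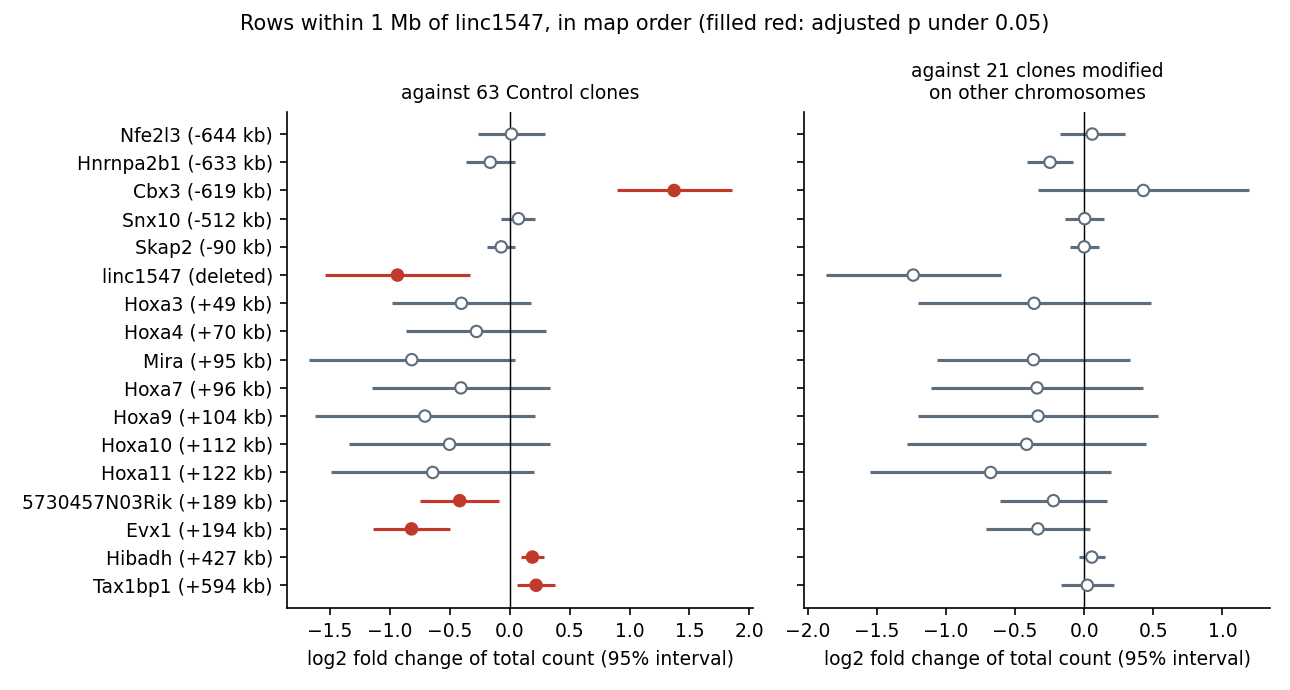
Log2 fold change of the total count of each tested row within 1 Mb, in map order with its distance from linc1547 in kb, with the 95% interval, for the 8 deletion clones against the 63 Control clones (left) and against 21 clones modified on other chromosomes (right; Hoxa4 was too low there). Filled red points have an adjusted p under 0.05, which 6 rows including linc1547 have on the left and none on the right.

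**Figure D3:**
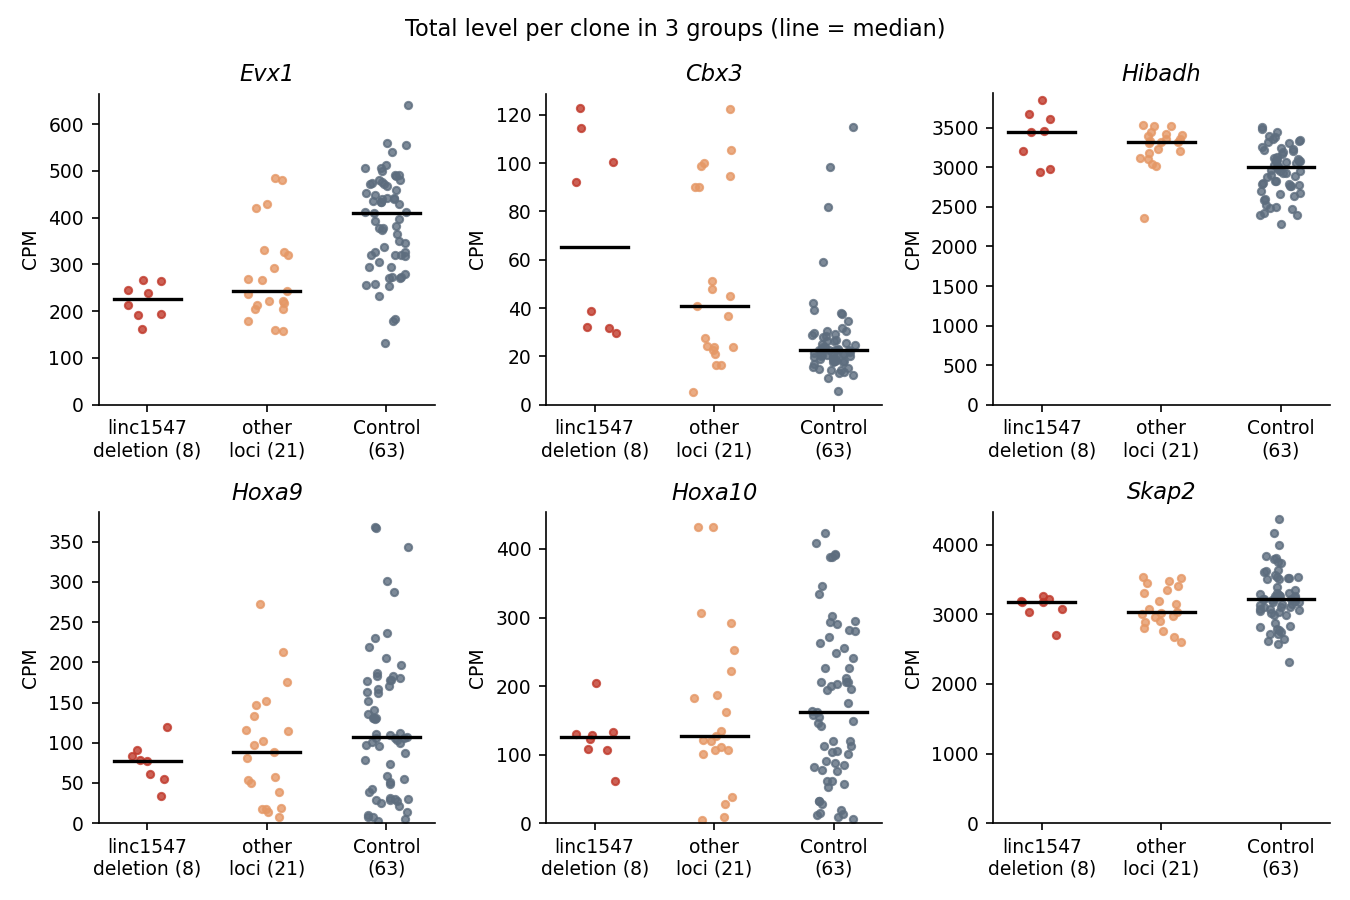
Level (CPM) of 6 neighbours in each deletion clone (red), each clone modified on another chromosome (orange) and each Control clone (grey), with the group median as a line. Evx1 is low in the deletion clones and in many clones modified elsewhere, Cbx3 falls into a low and a high set of clones, and Hoxa9 and Hoxa10 spread over the whole range among Control clones.

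A proportionally equal change on both alleles leaves the allele ratio of a gene within a clone unchanged, apart from the effect of the added 0.5. Level and ratio can still move together where the alleles change unequally. None of the 14 neighbours with enough allele counts had an absolute allelic deviation beyond that of the Control clones by the permutation test, the lowest adjusted p being 0.285, for Hoxa9. Hoxa9 deviated by 0.68 ± 0.52 in the deletion clones and by 0.35 ± 0.27 in the Control clones (SD, n = 8 and n = 55). Skap2 deviated by 0.05 ± 0.03 in the deletion clones and by 0.07 ± 0.07 in the Control clones (SD, n = 8 and n = 63).

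The ratios were then signed, so that a negative shift means a lower share on the allele where linc1547 was reduced. A clone was given a side where it had at least 20 linc1547 counts and a ratio outside the range of all Control clones, which held for B5, C6 and C8, all low on allele B. In edgeR's allele model over these 3 clones 2 of 574 rows were called, 0.348%, and 0 of the 16 neighbours, whose lowest adjusted p was 0.312, for Hnrnpa2b1 (shift 0.15 ± 0.05, SE). Because 3 clones of 1 direction cannot separate the deletion from the strain, the side of all 8 clones was also taken from the sign of the linc1547 deviation alone, a choice made after the data had been seen. With these 8 clones 4 of 572 rows were called, 0.699%, and again 0 of the 16 neighbours.

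Over the 8 clones the neighbours' estimated shifts ran from -0.21 to 0.27 on the log2 scale, 4 of them negative and 12 positive. The shift of Evx1 was 0.13 with a 95% interval from -0.09 to 0.36. The model has no term for an allele offset shared by all deletion clones, and 6 of the 8 were low on allele B. Its estimates therefore take in any such offset, and a loss of Evx1 on the linc1547-reduced allele cannot be separated from it. Its single clones had shifts of 0.01, 0.27, 0.38, 0.35, -0.13, 0.40, -0.02 and -0.13 in B5, C5, C6, C8, D6, E10, G10 and H7. The 2 clones low on allele A, D6 and G10, were among the 3 with a negative value. The best measured neighbours had the narrowest intervals, from -0.05 to 0.08 for Skap2, from -0.06 to 0.08 for Hibadh, from -0.12 to 0.01 for Tax1bp1 and from -0.03 to 0.10 for Hnrnpa2b1.

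For the Hoxa genes the intervals were wider. The shift of Hoxa9 was 0.19 (-0.21 to 0.59), that of Hoxa10 -0.21 (-0.49 to 0.07), that of Hoxa11 -0.17 (-0.63 to 0.29) and that of Hoxa7 0.04 (-0.42 to 0.49). The data cannot tell apart the shifts that lie within these intervals. An exact two-sided sign-flip permutation test over the 8 clones gave a lowest p of 0.0469, for Nfe2l3, which was 0.500 after adjustment over 16 neighbours, where the smallest p the design allows is 0.00781. Nfe2l3 was higher on the linc1547-reduced allele in 6 of 8 clones, with a mean shift of 0.30 ± 0.34 (SD, n = 8).

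**Figure D4:**
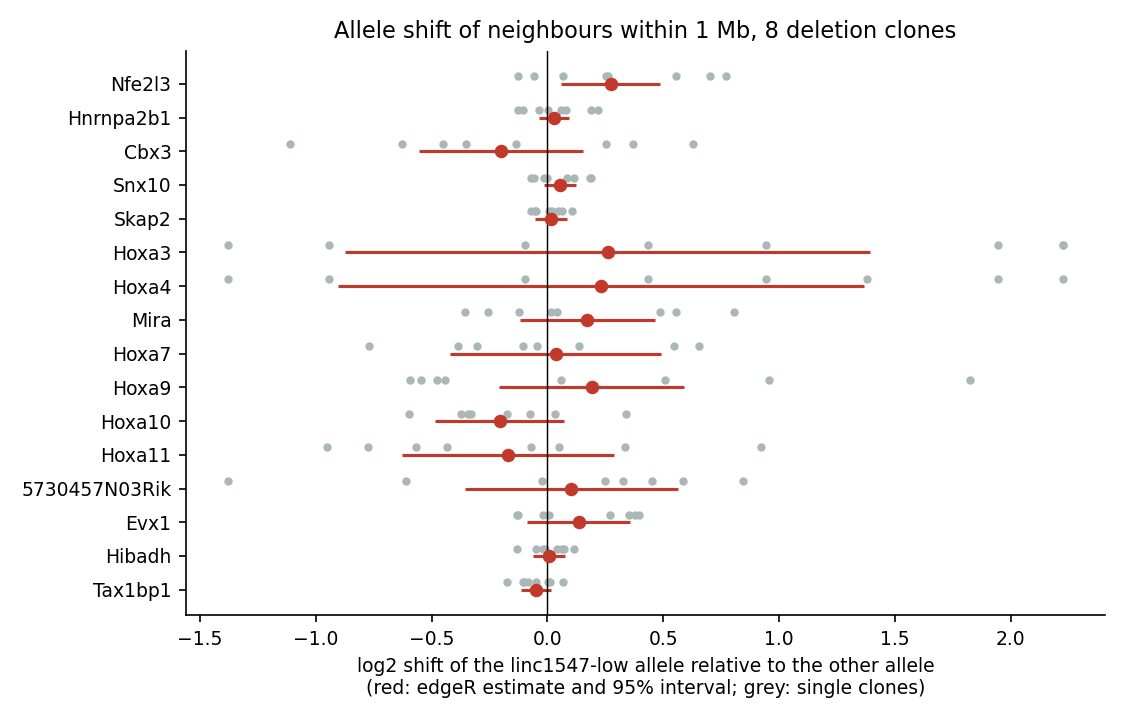
Log2 shift of the allele on which linc1547 was reduced, relative to the other allele and to the Control median, for 16 rows within 1 Mb in map order. Red points are edgeR estimates over 8 deletion clones with 95% intervals, grey points single clones; no row was called, and the estimates run from -0.21 to 0.27.

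Clone B5 stood apart in its chromosome 6 median. Its median deviation over 68 rows of chromosome 6 outside the window was -0.12, where the Control clones ran from -0.04 to 0.05 and the other 7 deletion clones from -0.03 to 0.01. B5 also lay just outside the Control range on chromosome 7, at -0.10. On chromosome 3, where the Control clones ran from -0.06 to 0.06, C8 at 0.09 and H7 at 0.07 lay outside that range. With the chromosome 6 median of each clone subtracted, the difference in absolute deviation of linc1547 was 2.98 and 0 neighbours were called.

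Outside the window 94 rows were higher and 68 lower than in the Control clones, and none was called against the clones modified on other chromosomes. Among the 8 largest higher rows were Picalm, a clathrin assembly gene, with a log2 fold change of 1.44 and an adjusted p of 0.000158 in edgeR, Bzw1, a translation regulator, with 1.26, Zbtb7a, a zinc finger factor, with 1.14, and Nop2, a nucleolar RNA methyltransferase, with 1.11. Mum1 (1.40), Gm595 (1.27), Med16 (1.17) and Fzr1 (1.12) made up the 8. Picalm had 43.1, 10.7, 7.19, 46.01, 2.89, 44.96, 13.4 and 52.9 CPM in clones B5, C5, C6, C8, D6, E10, G10 and H7, against a Control median of 8.84 CPM. The 4 clones high in Picalm are those high in Cbx3, and they were also the highest 4 in Bzw1, Nop2, Mum1 and Eed. With 1 library per clone, a trait of the clone and one of its library cannot be told apart.

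The 8 largest lower rows were Ripply3 (-1.56), Bdkrb2 (-1.54), Plac1 (-1.42), Pianp (-1.32), Cyp1a1 (-1.21), Pla2g4f (-0.99), Vamp1 (-0.89) and Crabp2 (-0.89). Ripply3 lost its call when any of 4 single clones was left out (highest adjusted p = 0.0677 in edgeR), Bdkrb2 without H7 and Pla2g4f without B5. Among the higher rows Med16 lost its call without H7. Cyp1a1, an aryl hydrocarbon responsive monooxygenase, had 1241, 1430 and 2345 CPM as the lowest, median and highest of the deletion clones, and 1530, 3344 and 12722 CPM of the Control clones. All 8 deletion clones lay below the Control median, with an adjusted p of 0.000178 in edgeR. Crabp2, a retinoic acid binding protein, had 153 to 217 CPM in the deletion clones and 180 to 647 CPM in the Control clones, with an adjusted p of 0.000107, and a log2 fold change of 0.01 against the clones modified on other chromosomes.

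Few genes of the regulatory lists were in the capture, and the calls among them have to be read against the 29.3% of all rows called in this comparison. Of 31 other Hox and retinoic acid response genes 10 had a row and 5 were tested, of which Crabp2 was lower and none higher, with a list median of -0.27. All 4 naive pluripotency genes tested stayed uncalled, with a median of 0.01. Of 11 mesendoderm genes 2 were tested and neither was called. The 1 neural or epiblast gene tested, Nes, the neural progenitor filament nestin, was lower, at -0.29 ± 0.10 (SE; adjusted p = 0.0249 in edgeR), and lost its call when any of 5 single clones was left out. Of 18 Polycomb genes 2 were tested, and Eed, a core subunit of the H3K27 methyltransferase complex, was higher at 0.88 ± 0.24 (SE; adjusted p = 0.00490) while Sfmbt2 was lower at -0.37 ± 0.13 (SE; adjusted p = 0.0228). Against the clones modified on other chromosomes the log2 fold changes were 0.04 for Eed, -0.08 for Sfmbt2 and -0.19 for Nes, none called. Sfmbt2 lost its call when any of 3 single clones was left out. Of the 18 genes modified elsewhere in the series 6 were tested, and besides Sfmbt2 Dicer1, the microRNA processing enzyme, was called, at 0.20 ± 0.07 (SE; adjusted p = 0.0376), a call lost when any of 4 single clones was left out. No fibroblast or feeder marker was in the capture, so the presence of feeder cells was not tested.

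A few genes far from linc1547 passed the allelic tests. The absolute deviation of Rhcg, an ammonium transporter gene on chromosome 7, was 0.76 ± 0.30 in the deletion clones and 0.30 ± 0.25 in the Control clones (SD), with an adjusted permutation p of 0.00507. That of Hdgf, a growth factor gene on chromosome 3, was 0.76 ± 0.42 in the deletion clones and 0.28 ± 0.24 in the Control clones, with an adjusted permutation p of 0.0186. The call of Rhcg was lost without B5, E10 or H7 (highest adjusted permutation p = 0.0640), and that of Hdgf without B5, C8, E10, G10 or H7 (highest adjusted permutation p = 0.145). The absolute deviation of Hdgf was 0.84 to 1.24 in B5, C8, E10 and H7, the clones high in Picalm and Cbx3, and 0.07 to 0.66 in the others. C8 and H7 were also the clones outside the Control range in the chromosome 3 median, while B5 and E10 lay inside it, at 0.03 and 0.02. The part of either grouping in the Hdgf deviation was not tested. In the signed model over 3 clones Phb2 on chromosome 6, 72.6 Mb away, had a shift of 0.10 ± 0.02 (SE; adjusted p = 0.0267 in edgeR), and Wdr5 on chromosome 2 one of 0.11 ± 0.03 (SE; adjusted p = 0.0477). Without B5, the clone outside the Control range in its chromosome 6 median, the shift of Phb2 was 0.04 (edgeR, adjusted p = 0.996). Wdr5 lost its call without any 1 of the 3 clones.

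Over 8 clones the 4 called rows were Hdgf (-0.57), Myd88 on chromosome 9 (-0.30), and 2010107G12Rik (0.61) and Ptms (0.23), both on chromosome 6, at 17.2 Mb for 2010107G12Rik and 72.8 Mb for Ptms. Myd88 had its largest negative shifts in the 2 clones low on allele A, -0.96 in D6 and -0.78 in G10, while the other clones ran from -0.21 to 0.11. 2010107G12Rik was higher on the linc1547-reduced allele in 7 of the 8 clones. Ptms had shifts of 0.42 to 0.59 in B5, C8, E10 and H7, the clones high in Picalm and Cbx3, and of -0.09 to 0.13 in the others. None of these 4 was called against the clones modified on other chromosomes.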

How the data were processed

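Poly(A)+ RNA libraries were enriched by hybrid selection, per the labels' protocols. The authors deposited 1 file per clone with read counts for each of 2 alleles per captured gene, and the submitters' processing notes name the mm9 build. The sources used here state neither aligner nor counting tool nor whether strand was used. Of 903 rows, 5 that repeated another row were dropped, which left 898. The 23 samples of other assays were not used. Replicates are clones of 1 cell line with 1 library each, so p-values measure a spread that mixes clone and library. The main tests took the Control clones as independent and had no term for the P tag. Intervals on shares cover counting error only.

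Totals were the sum of both alleles. Rows with a mean of at least 10 counts were tested with edgeR 4.0.16 (TMM, quasi-likelihood, only the 2 groups compared); DESeq2 1.42.0 was an alternative. Allelic deviation used rows with at least 20 counts in at least 5 deletion and 20 Control clones and 100000 permutations. The signed allele model was edgeR with clone as a block, and limma 3.58.1 as an alternative. Adjusted p-values are Benjamini-Hochberg values over all rows tested, or over the tested neighbours alone for the sign-flip test, with a threshold of 0.05. Scripts were tested on simulated data with known changes. RefSeq tables (GRCm38.p6) matched 26 of 26 window names and 882 of 898 row names; items withheld for evaluation are not reported here. Named genes were linc1547, neighbours that passed the count filter, the 8 largest called changes in each direction outside the window, the lowest-p allelic calls and called list members. The members and lists were chosen with earlier results of these data known.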

Additional observations from a re-analysis of the deposited data

Results flagged for a closer look

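In 85 sets of clone values examined, 8 had a deletion clone whose gap to its nearest neighbour exceeded Dixon's 95% critical value, where chance gives about 1 in 20. Clone D6, the shallowest deletion library, accounted for 4 of them. Its linc1547 level was 54.9 CPM, where the other 7 clones ran from 8.39 to 30.3 CPM. Its Snx10 level was 1508 CPM against 2122 to 2507 CPM in the others, and its Skap2 level 2705 CPM against 3038 to 3270 CPM. Its Wdr5 level was 24081 CPM against 17816 to 20202 CPM. The Pianp level of clone E10 was 17.98 CPM, against 36.2 to 52.1 CPM in the others, and below the lowest Control clone at 22.5 CPM. The log2 allele ratio of Phb2 on chromosome 6 was -0.26 in B5, against -0.13 to -0.07 in the others. That of Rhcg was -2.44 in C6, against -3.68 to -3.13, and that of Sfmbt2 was 1.77 in C8, against 1.54 to 1.61.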

How the results depend on the processing

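No paired analysis was possible because the titles give well positions and no replicate numbers shared between groups. The total change of linc1547 kept its direction and call under DESeq2, library size alone, no filter, Control clones of any date label and Control clones summed by P tag (-1.16 to -0.92), and ran from -1.20 to -0.80 with each clone left out, losing its call without E10. Against the clones modified on other chromosomes it was -1.24 (not called, edgeR), and the difference in absolute allelic deviation was 2.93 (not called). With a minimum of 50 counts, or without any 1 of the 5 clones that had 20 counts, linc1547 had too few clones to be tested for allelic deviation; the 3 other left-out clones gave 2.96 each.

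Neighbours called for their total numbered 5, but 2 with Control clones of any date label, 0 with clones modified on other chromosomes (edgeR and DESeq2), 2 within 200 kb, 7 with Control clones summed by P tag, and 3 to 5 with each clone left out (3 without E10). Outside the window 94 rows were higher, against 21 with Control clones of any date label, 0 with the clones modified on other chromosomes by either tool, 131 with Control clones summed by P tag, 113 with no filter, and 72 to 100 with each clone left out. Of lower rows there were 68, against 0 by either tool with that group, 102 with Control clones summed by P tag, 78 with DESeq2, 48 with Control clones of any date label, and 41 to 69 with each clone left out. Leaving out B5 or C8 gave 41 lower rows each, E10 42 and H7 45. The causes were not tested. Allelic deviation called 2 rows outside the window, but 1 on the allele fraction scale, 0 with Control clones of any date label or with clones modified on other chromosomes, and 0 to 2 with each clone left out. The signed model called 2 outside rows, but 0 with limma, 0 with clones modified on other chromosomes and 0 to 3 with each of the 3 clones left out; with the side of all 8 clones it called 4 (edgeR), 4 (limma) and 0 (clones modified on other chromosomes). The counts of neighbours called by either allelic test were 0 under every alternative run.

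Uncalled values near 0 changed sign: Nfe2l3 (-0.022 with Control clones of any date label, and -0.00067 to 0.062 with each clone left out, negative without C5), Snx10 (-0.15 with Control clones of any date label) and Skap2 (0.0017 with DESeq2 and the clones modified on other chromosomes). Crabp2 turned to 0.012 (edgeR) and 0.016 (DESeq2) with the clones modified on other chromosomes. Mira (-0.92, adjusted p = 0.0184) and Hoxa9 (-0.81, adjusted p = 0.0477) passed edgeR's test with Control clones summed by P tag. linc1547 had 11 to 49 counts per deletion clone, which limits every statement on the side of a clone.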
